A study of Mus musculus with 24 samples.

Results

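The bone marrow RNA of Nrf2-KO mice was compared with that of wild-type (WT) mice when both had stayed on the ground. The comparison used 12 of the 24 libraries of the series, 6 from Nrf2-KO ground control mice (GC-KO) and 6 from WT ground control mice (GC-WT), with a library per mouse. The other 12 libraries came from Nrf2-KO and WT mice after spaceflight (FL-KO and FL-WT). Their values are given here only beside the ground values. They also entered the filter of tested genes, the estimate of spread in the fit and the alternative scalings. All mice were male and of C57BL/6 background, and were kept in individual cages. By label the ground mice differed only in the genotype, WT or Nrf2 KO. The ages of the ground control mice and the exons removed in the knockout are not given in the sources used here. Marrow cells of the right pelvis and tibia had been frozen in CELLBANKER2 and stored in liquid nitrogen, and RNA was taken from the frozen suspension, so cells that had not survived freezing were not removed first. Expression was given as TPM, the length-corrected transcripts of a gene scaled to a fixed total per library. The table holds no read counts, so the depth of each library is unknown. Of 54752 genes in the table, 26504 were at 0 in every library, and the 12373 with a TPM above 1 in at least 1 library were tested.

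Nrf2, encoded by Nfe2l2, is a transcription factor that guards cells against oxidants and electrophiles. Its partner Keap1 marks it for degradation in resting cells, and under stress Nrf2 accumulates, pairs with a small Maf protein and binds antioxidant response elements, where Bach1 can compete with it. Its targets make and reduce glutathione and thioredoxin, supply NADPH, detoxify quinones and break down heme. In bone marrow these enzymes serve red cell precursors, which handle iron and heme, and neutrophils, which make oxidants on purpose.

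Each difference is given as GC-KO minus GC-WT on the scale of log2(TPM + 1) and was tested with limma. For genes at low TPM, the added 1 keeps this fold change below the ratio of the TPM values. A differentially expressed gene (DEG) had a Benjamini-Hochberg adjusted p under 0.1 over all tested genes and a change of at least 2-fold. With these thresholds, 376 genes, 3.04% of those tested, were lower in GC-KO mice, and 16, 0.129%, were higher. Where the text gives an exact p for a gene, it comes from the permutation of rank sums, two-sided, over the 924 splits of 12 mice, whose smallest possible p is 0.00216. The limma p-values rest on the spread within all 4 groups, flight mice included, and the permutation p-values on the 12 ground mice. In bulk RNA of a mixed tissue, fewer cells of a type and less RNA per cell cannot be told apart.

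Most genes moved slightly down together. All tested genes together had a median log2 fold change of -0.22, a ratio of 0.858, and 9564 of the 12373 genes had a value below 0. This shift depended on the scaling. It was 0.02 when the libraries were scaled by the median of ratios, which levels the typical gene between libraries, and -0.35 when 5 abundant small RNAs were left out of the total. Gene groups are therefore described by their median relative to the shift, that is, after subtracting the median of all genes. When each gene was tested against the shift instead of against 0, 123 genes (0.994%) were lower and 29 (0.234%) were higher by at least 2-fold. All of these 123 were among the 376, as subtracting a negative shift only raises the bar for lower genes. The corresponding numbers were 70 lower and 30 higher with median-of-ratios scaling and 86 lower and 33 higher with quantile normalization, so the share of higher genes among the DEGs depends on the scaling.

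The fold change also moved with the base composition of the transcripts. Across 12370 genes with an annotated transcript, the rank correlation (Spearman) between the fold change and GC content was -0.43, and with transcript length it was -0.35. These are descriptions across genes, which share the same 12 libraries and are not independent. From the quintile of genes with the lowest GC content to the quintile with the highest, the median log2 fold changes were -0.02, -0.17, -0.25, -0.35 and -0.44. The share of lower DEGs in the same quintiles was 0.202%, 0.728%, 1.82%, 4.53% and 7.92%. In each library, the median of the quintile richest in GC minus that of the poorest, as deviations from the GC-WT mean, lay between -0.22 and 0.20 in GC-WT mice and between -0.55 and -0.18 in GC-KO mice. When a smooth trend with GC content and length was removed from each library, 41 genes (0.331%) were lower and 18 (0.146%) were higher, and 38 of the 376 were still called. The part of GC content and length in the other differences was not tested, and for most groups below the median with this trend removed is given beside the main one.

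**Figure D1:**
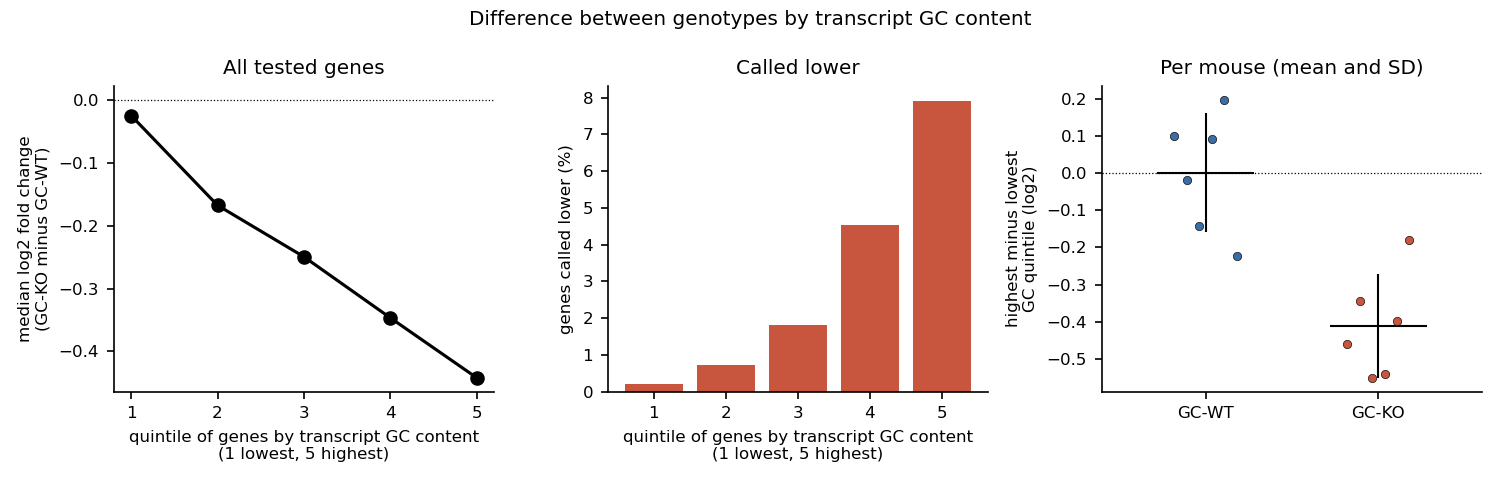
Left, points joined by a line give the median log2 fold change (GC-KO minus GC-WT) of tested genes by quintile of transcript GC content; centre, bars give the percentage of genes called lower in each quintile; right, each point is a mouse, with the median deviation of the quintile richest in GC minus that of the poorest (log2), and the lines are the mean and SD of 6 mice. The medians go down from -0.02 to -0.44 with rising GC content, and the share called lower goes up from 0.202% to 7.92%.

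Some mice stood nearer to the other genotype than their group did. GC-WT mouse 10 had the lowest value of its group in many of the genes described below, and GC-KO mice 11 and 12 often had the highest of theirs. Without GC-WT mouse 10, the number of lower DEGs was 581, without GC-KO mouse 11 it was 605, and without GC-KO mouse 12 it was 580. Without GC-KO mouse 04, it was 248. The number of higher DEGs lay between 15 and 20 when any 1 mouse was left out. Of the 376 lower DEGs, 134 had no overlap between the groups, as did 1132 of all tested genes in this direction (9.15%). Of the 16 higher DEGs, 8 had none, against 27 of all genes (0.218%).

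Nfe2l2 itself was low in every GC-KO mouse. In GC-WT mice it ranged from 17.1 to 26.1 TPM with a median of 21.4, and in GC-KO mice from 3.60 to 7.18 TPM with a median of 4.89. The groups did not overlap, and the direction was that of the genotype labels. The log2 fold change was -1.91 ± 0.17 (SE; adjusted p = 2.5e-08; exact permutation p = 0.00216). The TPM of a whole gene does not show which exons the remaining reads come from. Nfe2l2 lies on chromosome 2 of the mouse genome GRCm38 (chr2:75675513-75704641, minus strand). Of 81 other tested genes within 10 Mb of it, 1 was a lower DEG, Wipf1, and 0 were higher, and their median log2 fold change was -0.14. The share of lower DEGs in this stretch, 1.23%, was below the 3.04% of all genes.

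To show what kind of sequence Nrf2 reads, the promoters of the genes in 5 lists of the Nrf2 pathway were searched for the core of the antioxidant response element. The letters TGACNNNGC, in which N is any base, were searched on both strands in the 250 bases before each RefSeq start of GRCm38.p6, and read GCNNNGTCA when they lie on the strand opposite to the gene. They occurred in 10.2% of 32851 windows and in 11.5% of 27025 genes. In the Nrf2 lists they occurred in 13 of 54 genes with a window (24.1%), and among lower DEGs in 42 of 278 (15.1%), against 1211 of 8609 tested genes (14.1%). The core, in capitals, is shown for 5 genes that span the range of responses described below, and for Nfe2l2. Txnrd1 and G6pdx had large negative values in GC-KO mice, Mafg a smaller one, and Gclm and Prdx1 values nearest to 0. The stretches, on the strand of the gene and 5′ to 3′, are Txnrd1 at chr10:82859089-82859147 on the plus strand, G6pdx at chrX:74428904-74428962 on the minus strand, Mafg at chr11:120633736-120633794 on the minus strand, Gclm at chr3:122245398-122245456 on the plus strand, Prdx1 at chr4:116685441-116685499 on the plus strand and Nfe2l2 at chr2:75704870-75704913 on the minus strand.
Txnrd1: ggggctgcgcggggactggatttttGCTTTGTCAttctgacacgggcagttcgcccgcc
G6pdx: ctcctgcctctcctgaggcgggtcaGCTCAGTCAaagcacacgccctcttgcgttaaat
Mafg: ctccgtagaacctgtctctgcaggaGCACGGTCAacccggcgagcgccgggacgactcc
Gclm: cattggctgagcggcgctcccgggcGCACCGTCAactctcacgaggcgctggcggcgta
Prdx1: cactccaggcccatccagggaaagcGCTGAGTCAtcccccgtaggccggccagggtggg
Nfe2l2: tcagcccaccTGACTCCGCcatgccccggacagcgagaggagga
A match of these letters is a description of the sequence and not a measured binding site. Genes with the core thus included some that fell in GC-KO mice and some that did not pass the test.

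The regulators around Nrf2 were lower as well. Of 9 tested regulators, Nfe2l2 included, 7 passed the adjusted p at any fold change, all lower, where 42.9% of all genes were lower by this criterion. Their median relative to the shift was -0.26, and -0.13 with the GC and length trend removed, where the median of all genes is 0.02. Keap1, which holds Nrf2 in check, averaged 7.81 TPM in GC-WT mice (SD 0.905, n = 6, as for the values after it) and 4.57 ± 1.16 TPM in GC-KO mice, with no overlap (log2 fold change -0.68). Mafg, a small Maf partner with the core shown above, was at 23.6 ± 3.93 and 14.0 ± 3.21 TPM (log2 fold change -0.72). Bach1, the competitor of Nrf2, fell by 0.48 on the log2 scale, and Nfe2l1, its relative, by 0.71. With the GC and length trend removed, Keap1 was at -0.088 and Mafg at -0.131, and neither passed the test (adjusted p = 0.175 and 0.146). Apart from Nfe2l2, none of the 9 was a DEG.

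The antioxidant enzymes did not move as a block. In the list of thioredoxin, quinone and antioxidant enzymes, 11 of 21 fell and 1 rose at any fold change. Over all genes, 42.9% fell and 3.13% rose. Tested against the shift, 4 of 21 were lower, where 18.2% of all genes were, and 3 were higher, where 13.9% were. The median relative to the shift was -0.05, and -0.07 with the trend removed. Clear changes were found in a few members. Txnrd1, the cytosolic thioredoxin reductase, ranged from 8.67 to 11.9 TPM (median 10.6) in GC-WT mice and from 3.70 to 7.02 TPM (median 4.70) in GC-KO mice. Every GC-KO mouse was below every GC-WT mouse (log2 fold change -0.94 ± 0.15 SE, adjusted p = 0.000255). Srxn1, which repairs overoxidized peroxiredoxins, ranged from 1.46 to 2.78 TPM (median 1.98) and from 0.63 to 0.80 TPM (median 0.73). Again the groups did not overlap, and the GC-KO mice lay close together (log2 fold change -0.83 ± 0.10 SE, adjusted p = 9.07e-06). Both were under the 2-fold limit on the log2(TPM + 1) scale. Cat, the catalase that splits hydrogen peroxide, was a DEG at 49.3 ± 14.0 against 22.7 ± 5.38 TPM (log2 fold change -1.06 ± 0.19 SE, adjusted p = 0.000411). Nqo1, the quinone reductase often used to read Nrf2 activity, was low in both groups, at 3.02 ± 0.698 and 2.09 ± 0.496 TPM (log2 fold change -0.37, adjusted p = 0.0203). Ugdh, which makes the sugar for glucuronide conjugates, and Prdx6 fell by 0.44 and 0.42 on the log2 scale. Prdx1, whose promoter holds the core, was at 41.4 ± 8.28 and 44.4 ± 3.93 TPM and did not pass the test (log2 fold change 0.12, adjusted p = 0.529).

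The glutathione genes were on balance no lower than other genes. Of 16 tested, 7 passed at any fold change, all lower, near the 42.9% of all genes that fell. Against the shift 1 was lower and 4 were higher, where 18.2% and 13.9% of all genes were. The list median relative to the shift was 0.10, a sign that turned under quantile normalization. With the trend removed it was 0.02, where the median of all genes is also 0.02. Gclc and Gclm encode the catalytic and modifier subunits of glutamate-cysteine ligase, the rate-limiting enzyme of glutathione synthesis. Gclc was at 13.9 ± 3.14 and 10.3 ± 1.99 TPM (log2 fold change -0.40, adjusted p = 0.0551). Gclm was at 53.1 ± 12.5 and 45.8 ± 8.52 TPM and did not pass the test (log2 fold change -0.19, adjusted p = 0.363), with a sign that turned under 3 other scalings. Gsr, which regenerates reduced glutathione, fell by 0.44. The DEG of the list was Gstm1, a glutathione transferase, at 28.8 ± 7.04 and 12.98 ± 5.88 TPM (log2 fold change -1.15, adjusted p = 0.000537). Gstm1 has near-identical relatives, and reads shared with them could have been split by the counting.

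Most genes that supply NADPH were lower. In the list of pentose phosphate and NADPH enzymes, 7 of 9 fell at any fold change, where 42.9% of all genes did. Tested against the shift, 5 of 9 were lower, where 18.2% of all genes were. The median relative to the shift was -0.42, and -0.30 with the GC and length trend removed. G6pdx encodes the first enzyme of the pathway. It ranged from 32.0 to 62.7 TPM (median 49.3) in GC-WT mice and from 13.3 to 36.4 TPM (median 17.2) in GC-KO mice. GC-KO mice 11 and 12, at 32.4 and 36.4 TPM, lay just above GC-WT mouse 10 at 32.0 TPM (log2 fold change -1.19 ± 0.23 SE, adjusted p = 0.000478). Pgd, the next NADPH-producing step, ranged from 66.9 to 110 TPM (median 84.7) and from 27.5 to 63.4 TPM (median 32.6), with no overlap (log2 fold change -1.13 ± 0.23 SE, adjusted p = 0.000622). Both were DEGs. Tkt, of the non-oxidative branch, fell by 0.95, and Idh1, which makes NADPH from isocitrate, by 0.72.

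Of 9 genes of heme breakdown and iron storage, 4 fell at any fold change, near the 42.9% of all genes, and 0 were DEGs. The list median relative to the shift was -0.03, a sign that turned under median-of-ratios scaling, and it was -0.01 with the trend removed. Hmox1, heme oxygenase 1, was at 35.7 ± 9.14 and 24.7 ± 2.76 TPM (log2 fold change -0.48, adjusted p = 0.0296). Slc11a1, a metal transporter of phagosomes, fell by 0.72, and Sqstm1, the autophagy receptor p62, by 0.59.

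**Figure D2:**
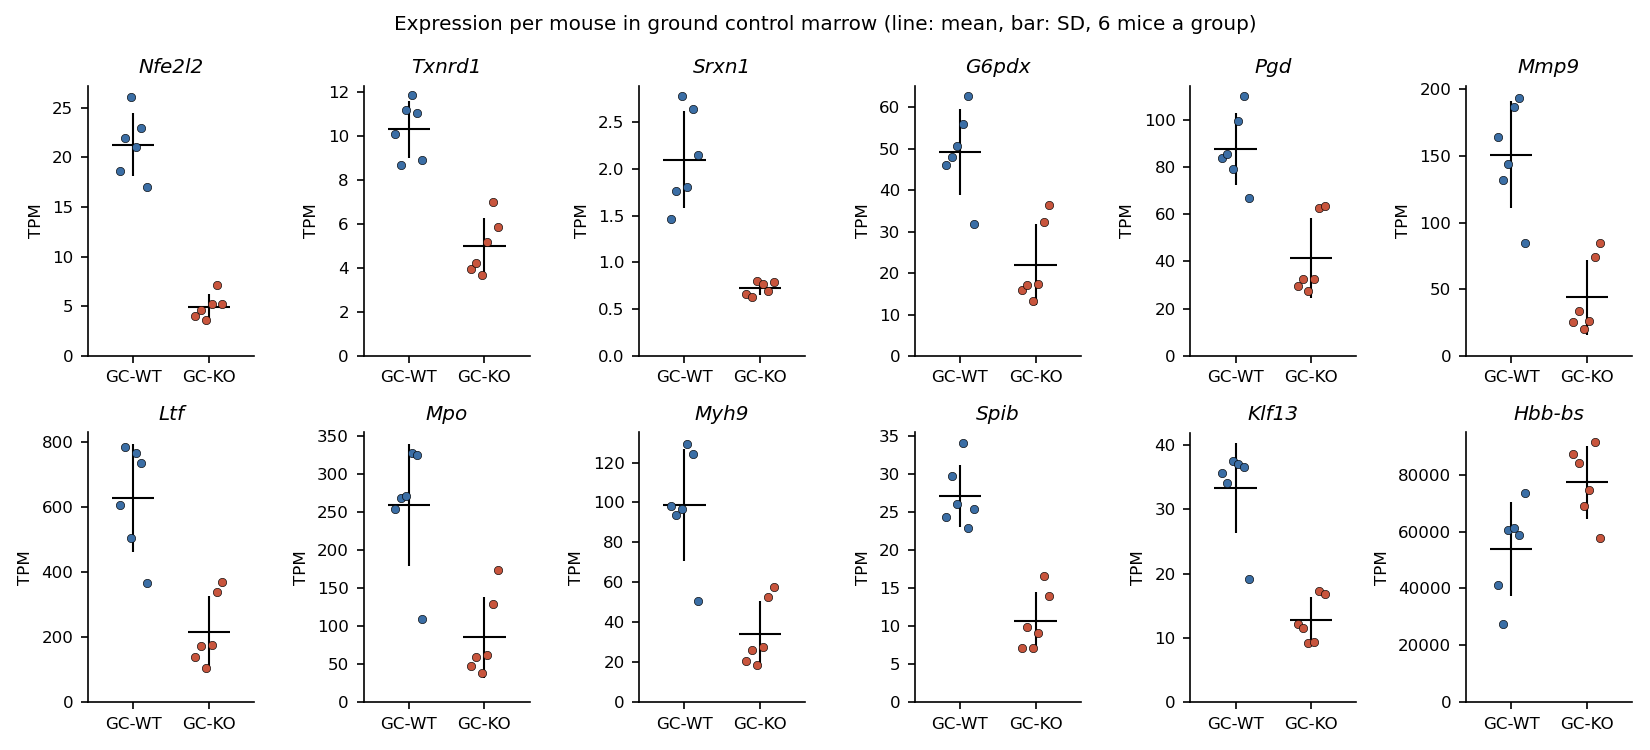
TPM of 12 genes in the 12 ground mice, 6 per genotype; points are mice, the horizontal line is the mean and the bar 1 SD. Nfe2l2, Txnrd1, Srxn1, Pgd, Mmp9, Spib and Klf13 show no overlap between the groups, while Hbb-bs lies higher in GC-KO mice with overlap.

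The lower DEGs were mainly protein-coding genes (345 of 376), and 20 were immunoglobulin genes. Their transcripts were richer in GC, with a median of 54.98%, and longer, with a median of 4094.5 bases, than those of all tested genes (49.1% and 2990.5 bases). Of these DEGs, 121 reached a mean of 5 TPM and were free of overlap, and the 15 lowest were Mmp9, Nfe2l2, Mfsd13a, Fmnl1, Kdm6b, Cyfip2, Tle3, Mmp25, Adgre5, Plec, Tnrc18, Itgb2, Lasp1, Wipf1 and Plcg2, with log2 fold changes from -1.92 to -1.34. Mmp9 encodes gelatinase B, a protease stored in neutrophil granules. It ranged from 84.8 to 193 TPM (median 154) in GC-WT mice and from 19.9 to 84.7 TPM (median 29.9) in GC-KO mice, so that the groups met at their edges without overlapping. The log2 fold change was -1.92 ± 0.33 (SE; adjusted p = 0.000411). Mfsd13a, a predicted transporter, ranged from 3.63 to 6.68 TPM (median 6.33) and from 0.59 to 1.71 TPM (median 0.95). This gap was wide for its spread, and its log2 fold change was -1.72 ± 0.18 (SE; adjusted p = 2.45e-07). Kdm6b encodes a histone demethylase of the mark H3K27me3, and Tle3 a co-repressor. Fmnl1, Cyfip2, Lasp1, Wipf1 and Plec all encode proteins that build or tether the cytoskeleton, Itgb2 is the common beta chain of leukocyte integrins, and Plcg2 acts below the B cell receptor and Fc receptors. All 15 were also called when tested against the shift. As they were chosen for the lowest values, they stayed beyond 2-fold after the shift of -0.22 was subtracted. That test was therefore no check on them. After median-of-ratios scaling all 15 were called, which their choice as the lowest also favours. Nfe2l2, Mmp9 and Mfsd13a were also called with the GC and length trend removed.

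Neutrophil granules are filled in turn as the cell matures. Secondary granules are filled in myelocytes. The list used for them also holds Mmp9, of gelatinase granules, and Ltb4r1, which encodes a membrane receptor. Of its 12 tested genes, 9 fell at any fold change, 4 were lower DEGs and 6 had no overlap. Over all genes, these shares were 42.9%, 3.04% and 9.15%. The median of the 12 relative to the shift was -0.48, and with the GC and length trend removed the median was -0.60. Ltf, lactoferrin, ranged from 367 to 786 TPM (median 672) in GC-WT mice and from 107 to 369 TPM (median 175) in GC-KO mice. The highest GC-KO mouse thus just passed the lowest GC-WT mouse. The log2 fold change was -1.62 ± 0.28 (SE; adjusted p = 0.000411), and Ltf was also called against the shift, after median-of-ratios scaling and with the GC and length trend removed. Itgb2l and Ltb4r1, an integrin chain and the receptor for leukotriene B4, were the other DEGs beside Mmp9, at log2 fold changes of -1.14 and -1.01.

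Primary granule genes, made earlier in promyelocytes, were mixed. Of 7 tested, 4 fell at any fold change, where 42.9% of all genes did, and 1 was a DEG. The list median relative to the shift was -0.14, and -0.04 with the trend removed. Mpo, myeloperoxidase, ranged from 109 to 327 TPM (median 270) and from 39.1 to 174 TPM (median 60.7). GC-WT mouse 10, at 109 TPM, lay among the GC-KO mice, and the other 5 GC-WT mice were above all of them. The log2 fold change was -1.72 ± 0.31 (SE; adjusted p = 0.000416). Elane, neutrophil elastase, fell by 0.86, whereas Ms4a3, a membrane protein of the same stage, was at 65.8 ± 10.1 and 75.2 ± 11.3 TPM and did not pass the test (log2 fold change 0.19, adjusted p = 0.312).

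Genes of mature neutrophils went in both directions. Of 14 tested, 4 fell and 3 rose at any fold change, where 42.9% and 3.13% of all genes did. The list median relative to the shift was 0.02, with the other sign under quantile normalization and with the GC and length trend removed (-0.18). Csf3r, the receptor for granulocyte colony-stimulating factor, was a lower DEG at 56.1 ± 8.85 and 26.1 ± 11.5 TPM (log2 fold change -1.16). Selplg, the selectin ligand, fell by 0.99. S100a8, a calcium-binding protein of neutrophils, was higher at 15105 ± 3244 and 20954 ± 3878 TPM (log2 fold change 0.48, adjusted p = 0.00675), with a sign that turned under quantile normalization. Il1b was at 11.6 ± 2.03 and 19.2 ± 8.22 TPM (log2 fold change 0.60, adjusted p = 0.0456). The summed TPM of the 14 genes was 24465 to 48914 in GC-WT mice and 37386 to 57557 in GC-KO mice.

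The phagocyte NADPH oxidase turns NADPH into superoxide. Of its 6 tested genes, 5 fell at any fold change, where 42.9% of all genes did. The median of the 6 relative to the shift was -0.47, with -0.35 once the GC and length trend was removed. Rac2, its GTPase, was a DEG at 126 ± 19.2 and 64.9 ± 25.6 TPM (log2 fold change -1.01, adjusted p = 0.000853). Ncf1 and Cybb, which encode a cytosolic organizer and the catalytic subunit, fell by 0.90 and 0.80. Ncf1 had no overlap between the groups.

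Of 10 myeloid transcription factors, 8 fell at any fold change and the same number were lower than the shift. Over all genes, these shares were 42.9% and 18.2%. The median of the 10 relative to the shift was -0.48. They are rich in GC (median 58.1%), and with the trend removed the median was -0.34. Klf2, the DEG of the list, was at 32.9 ± 3.86 and 15.8 ± 5.31 TPM, with no overlap (log2 fold change -1.07). Spi1, which encodes PU.1, was at 51.5 ± 6.11 and 28.7 ± 9.99 TPM, again with no overlap (log2 fold change -0.88). Irf8, which directs monocyte and dendritic cell fate, fell by 0.81.

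Genes listed for the actin cytoskeleton of leukocytes were mostly lower. This list, like the others, was chosen with earlier results of these data known. Its counts describe the list and are not a test. Of 26 tested, 23 fell at any fold change, 8 were DEGs and 17 were lower than the shift. Over all genes, these shares were 42.9%, 3.04% and 18.2%. The median of the 26 relative to the shift was -0.56, and -0.43 with the trend removed. Myh9, the heavy chain of non-muscle myosin, ranged from 51.0 to 129 TPM (median 97.3) in GC-WT mice and from 18.5 to 58.0 TPM (median 27.0) in GC-KO mice. The overlap was small, and the log2 fold change was -1.59 ± 0.28 (SE; adjusted p = 0.000412). Actb, beta-actin, often used as a reference gene, was at 2423 ± 422 and 1191 ± 507 TPM (log2 fold change -1.10 ± 0.23 SE, adjusted p = 0.000717). The other DEGs of this list were Wipf1, named above, Flna and Tln1, which tie actin to membranes and integrins, Iqgap1 and Dock8, which work with small GTPases, and Was, the Wiskott-Aldrich protein, with log2 fold changes from -1.34 to -1.02.

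B lineage regulators were lower in every member. All 10 tested transcription factors of the B lineage fell at any fold change and all 10 were lower than the shift. Of them, 4 were DEGs and 7 had no overlap. Over all genes, these shares were 42.9%, 18.2%, 3.04% and 9.15%. The median of the 10 relative to the shift was -0.62. Their median GC content, 48.6%, was close to that of all genes, but their transcripts were longer (median 4979 bases against 2990.5), and with the GC and length trend removed the median was -0.51. Spib ranged from 22.9 to 34.1 TPM (median 25.8) in GC-WT mice and from 7.10 to 16.6 TPM (median 9.56) in GC-KO mice, with a gap between the groups (log2 fold change -1.32 ± 0.22 SE, adjusted p = 0.000396). Pou2af1, a co-activator of immunoglobulin promoters, was at 20.2 ± 3.32 and 8.45 ± 2.03 TPM, with no overlap (log2 fold change -1.18). Ikzf3 and Bach2, regulators of B cell maturation, were at log2 fold changes of -1.10 and -1.07. These 4 were the DEGs of the list, and none of them was called with the GC and length trend removed.

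Of 13 genes of the pre-B receptor and of V(D)J recombination, 7 fell at any fold change, where 42.9% of all genes did. Of the same 13, 5 were lower than the shift (18.2% of all genes) and 5 had no overlap (9.15%). The median relative to the shift was -0.14, and the median with the trend removed was -0.27. Rag1, a subunit of the recombinase, was the DEG at 6.59 ± 1.74 and 2.63 ± 0.526 TPM, with no overlap (log2 fold change -1.05, adjusted p = 0.000416). Cd79a, a signalling chain of the B cell receptor, was at 75.8 ± 8.15 and 41.5 ± 11.3 TPM, also with no overlap (log2 fold change -0.89). Blnk, an adaptor below it, fell by 0.85. Cd74, the invariant chain of MHC class II, was the DEG among 10 genes of that presentation pathway, at 340 ± 47.3 and 170 ± 56.2 TPM (log2 fold change -1.05).

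Immunoglobulin constant and plasma cell genes varied widely between mice. Of 16 tested, 6 fell at any fold change and 3 were DEGs, where 42.9% and 3.04% of all genes did so. The list median relative to the shift was 0.01, and its sign turned under several settings, to -0.12 with the trend removed. Ighm, the constant region of IgM, ranged from 241 to 774 TPM (median 453) and from 125 to 266 TPM (median 171), with a small overlap (log2 fold change -1.25 ± 0.29 SE, adjusted p = 0.00153). Igha, of IgA, overlapped more widely, at 23.7 ± 13.7 and 11.1 ± 5.47 TPM (log2 fold change -1.001, adjusted p = 0.0218). Irf4, which plasma cells need, was at 6.33 ± 1.11 and 2.65 ± 0.883 TPM, with no overlap (log2 fold change -1.03). Immunoglobulin genes share sequence, and reads between them could have been split.

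**Figure D3:**
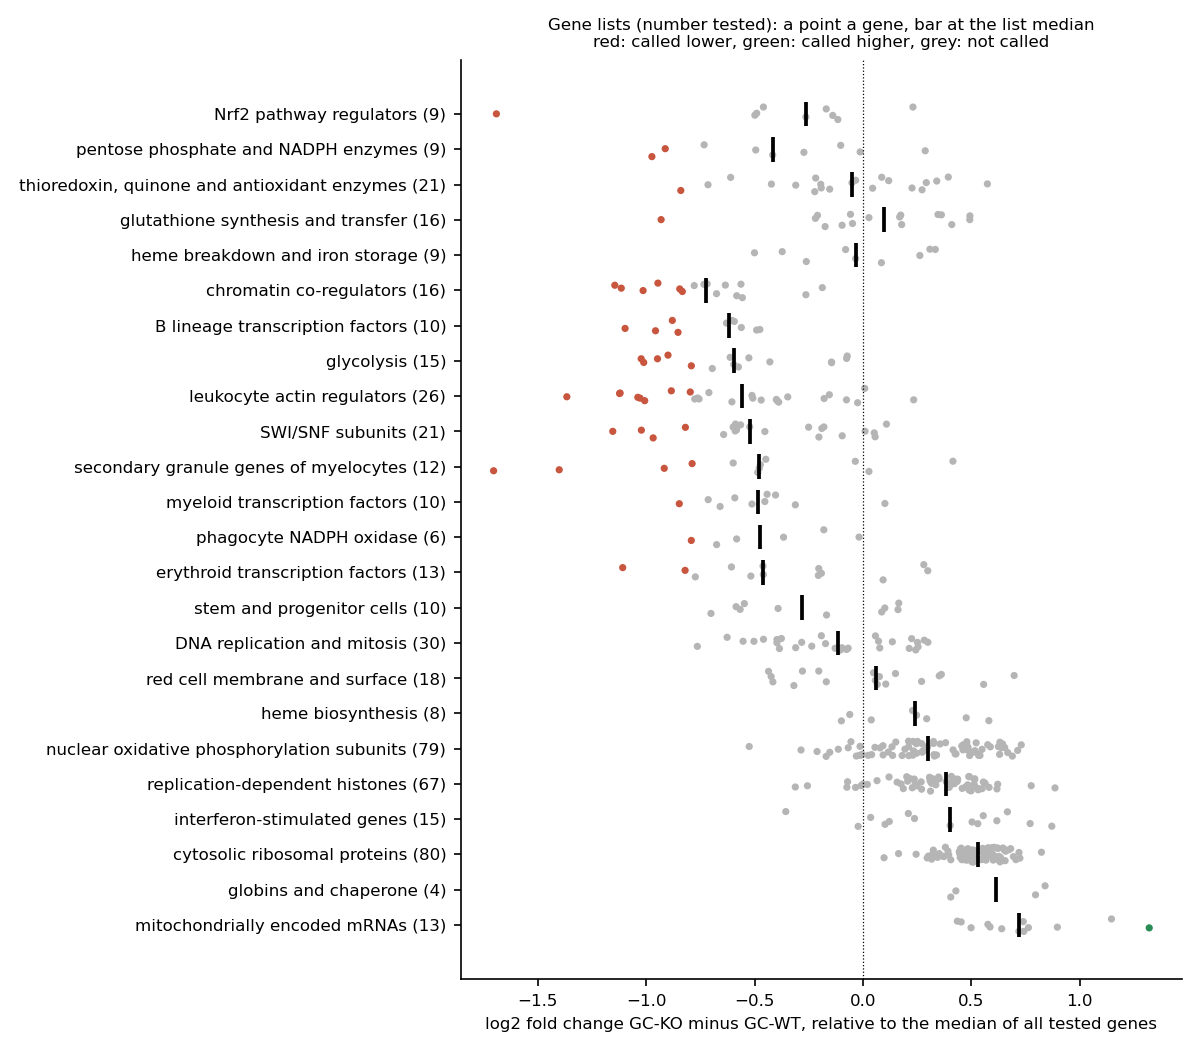
Log2 fold change relative to the median of all genes for the members of 24 gene lists; each point is a gene, the bar the median of its list, red points are lower DEGs and green points higher DEGs. Chromatin co-regulators, B lineage transcription factors, glycolysis and actin regulators lie to the lower side, with medians of -0.73, -0.62, -0.60 and -0.56, and ribosomal protein genes to the higher side, with a median of 0.53.

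Chromatin genes were among the lowest lists, less so once the trend was removed. All 16 chromatin co-regulators fell at any fold change, 6 were DEGs and 14 were lower than the shift. Over all genes, these shares were 42.9%, 3.04% and 18.2%. The median of the 16 relative to the shift was -0.73. They have long transcripts (median 8950 bases), and with the GC and length trend removed the median was -0.31. None of the 16 was free of overlap between the groups, where 9.15% of all genes were in this direction. Setd1b and Kmt2d, histone H3K4 methyltransferases, were at log2 fold changes of -1.37 and -1.34, and other DEGs of the list were the acetyltransferase Crebbp at -1.17 and the remodeller Chd4 at -1.05. Kmt2d ranged from 5.25 to 13.6 TPM (median 11.1) in GC-WT mice and from 1.95 to 5.72 TPM (median 3.12) in GC-KO mice. Only the edges of the groups crossed.

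SWI/SNF is a remodelling complex that opens chromatin. Of 21 tested subunits, 16 fell at any fold change, 4 were DEGs and 7 had no overlap. Over all genes, these shares were 42.9%, 3.04% and 9.15%. The median of the 21 relative to the shift was -0.52, and the median with the trend removed was -0.29. The DEGs were Arid1a (-1.37), Smarca4 (-1.24), Arid1b (-1.19) and Smarcc2 (-1.04). Smarca4, the ATPase BRG1, ranged from 12.7 to 25.1 TPM (median 21.5) and from 5.16 to 12.1 TPM (median 7.30), with no overlap, and none of the 4 was called with the GC and length trend removed.

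Red cell genes comprise regulators and products, which are given in turn. Of 13 erythroid transcription factors, 10 fell at any fold change, 6 were lower than the shift and 2 were DEGs. Over all genes, these shares were 42.9%, 18.2% and 3.04%. The median of the 13 relative to the shift was -0.46. They are rich in GC (median 55.5%), and with the trend removed the median was -0.15. Klf13 ranged from 19.2 to 37.5 TPM (median 36.0) in GC-WT mice and from 9.16 to 17.3 TPM (median 11.9) in GC-KO mice. The groups did not overlap, and GC-WT mouse 10 held the value of 19.2 TPM (log2 fold change -1.33 ± 0.21 SE, adjusted p = 0.000299). Tcf3, which also acts in B cells, was the other DEG at -1.04. Zfpm1, the GATA1 partner FOG1, was at 37.5 ± 12.1 and 18.2 ± 5.59 TPM (log2 fold change -0.99), and Zbtb7a fell by 0.83.

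Globin genes were higher or did not pass the test. Hbb-bs, the major adult beta globin, ranged from 27605 to 73510 TPM (median 59706) in GC-WT mice and from 57615 to 91575 TPM (median 79361) in GC-KO mice. The groups overlapped widely (log2 fold change 0.57 ± 0.18 SE, adjusted p = 0.0114; exact permutation p = 0.0411). Hbb-bt was at 11263 ± 3444 and 16837 ± 3251 TPM (log2 fold change 0.62, adjusted p = 0.00664), and Hba-a1 at 41287 ± 10075 and 46533 ± 6521 TPM (log2 fold change 0.21, adjusted p = 0.31). The globin genes are near-identical within each family, so that reads could have been split between them. Of 8 genes of heme biosynthesis, 0 passed at any fold change against 0. Tested against the shift, 2 passed as higher, where 13.9% of all genes did. The list median was 0.24 relative to the shift, and 0.31 with the trend removed. Alas2, the erythroid enzyme that starts heme synthesis, was at 640 ± 180 and 795 ± 134 TPM (log2 fold change 0.36, adjusted p = 0.124). Of 18 genes of the red cell membrane, 7 fell and 1 rose, where 42.9% and 3.13% of all genes did. The glucose transporter Slc2a1 was among the 7, and fell by 0.64. The median of this list relative to the shift was 0.06, or 0.15 with the trend removed, and its sign turned under quantile normalization.

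Glycolysis genes were lower nearly throughout. Of 15 tested, 14 fell at any fold change, 11 were lower than the shift, 5 were DEGs and 5 had no overlap. Over all genes, these shares were 42.9%, 18.2%, 3.04% and 9.15%. The median of the 15 relative to the shift was -0.60, and with the trend removed it was -0.37. The DEGs were Aldoa (-1.24), Hk3 (-1.23), Pkm (-1.17), Eno1 (-1.12) and Hk2 (-1.01). Pkm, the pyruvate kinase, ranged from 122 to 200 TPM (median 160) and from 48.3 to 120 TPM (median 60.4). The highest GC-KO mouse lay just under the lowest GC-WT mouse (log2 fold change -1.17 ± 0.22 SE, adjusted p = 0.000454). Cpt1a, which admits fatty acids to mitochondria, was the DEG among 15 genes of acyl-CoA and fatty acid metabolism, at 9.31 ± 2.54 and 3.67 ± 0.749 TPM (log2 fold change -1.11).

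Among 12 NF-kB and inflammatory genes, 6 fell at any fold change, near the share of all genes, 42.9%. The 2 DEGs, where 3.04% of all genes were lower DEGs, were Rela and Nfkb1. They encode the subunits p65 and p105 and had log2 fold changes of -1.15 and -1.02. The median of this list relative to the shift was -0.12, and -0.01 with the trend removed.

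Several groups lay above the shift. Of 80 tested cytosolic ribosomal protein genes, 45 rose at any fold change, where 3.13% of all genes did. Tested against the shift, 77 were higher, where 13.9% of all genes were. The list had a median log2 fold change of 0.31, or 0.53 relative to the shift, and of 0.45 with the trend removed. No member was a DEG, and 2 of 80 had no overlap, where 0.218% of all genes had none in this direction. Rpl9 was at 379 ± 128 and 520 ± 65.0 TPM (log2 fold change 0.50, adjusted p = 0.0123), and Rps27a at 389 ± 127 and 526 ± 36.9 TPM (log2 fold change 0.48, adjusted p = 0.00993). In both genes GC-WT mouse 10 was the highest of its group, at 618.6 and 638 TPM, above or within the range of the GC-KO mice. Many ribosomal protein genes have processed copies in the genome that can share reads.

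Of 13 mitochondrially encoded mRNAs, 8 rose at any fold change, 1 of them a DEG (mt-Atp8), and 12 were higher than the shift. Over all genes, 3.13% rose and 13.9% were higher than the shift. The median of the 13 relative to the shift was 0.72. They are poor in GC (median 37.1%), and with the trend removed the median was 0.17. mt-Co3, a subunit of cytochrome c oxidase, was at 798 ± 265 and 1238 ± 214 TPM (log2 fold change 0.68, adjusted p = 0.00226), and mt-Nd6 at 54.3 ± 31.6 and 94.3 ± 23.6 TPM (log2 fold change 0.93, adjusted p = 0.00558). Of 79 nuclear genes of oxidative phosphorylation, 19 rose and 6 fell, with a median relative to the shift of 0.30, and of 0.18 with the trend removed. Uqcrh, of complex III, rose by a log2 fold change of 0.51 (adjusted p = 0.00563).

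Among 15 interferon-stimulated genes, 5 rose and 1 fell at any fold change, where 3.13% and 42.9% of all genes did. Against the shift, 8 were higher, where 13.9% of all genes were. The list median was 0.40 relative to the shift and 0.37 with the trend removed. Isg15, a ubiquitin-like protein, ranged from 36.5 to 57.4 TPM (median 47.2) in GC-WT mice and from 57.0 to 76.4 TPM (median 69.8) in GC-KO mice, crossing only at the edge (log2 fold change 0.55, adjusted p = 0.00177). Ifi27l2a was at 60.4 ± 12.3 and 95.3 ± 18.03 TPM (log2 fold change 0.65, adjusted p = 0.00293). The summed TPM of the listed genes was 223 to 277 in GC-WT mice and 286 to 345 in GC-KO mice, without overlap. Such a sum is weighted toward the abundant members, among them Isg15 and Ifi27l2a. Replication-dependent histone genes, whose mRNAs lack poly(A) tails, showed 12 of 67 higher and 1 lower, with a median relative to the shift of 0.38, and of 0.36 with the trend removed. Hist1h4i and Hist1h2ad rose by log2 fold changes of 0.55 and 0.40 (adjusted p = 0.00342 and 0.0257). Histone genes are near-identical within a family. Among 5 genes of the stefin A cluster, which encode inhibitors of cysteine proteases, 2 rose, with a median relative to the shift of 0.58, and of 0.15 with the trend removed. Stfa3 was at 3.02 ± 1.31 and 5.15 ± 0.737 TPM (log2 fold change 0.67, adjusted p = 0.00232).

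The same pattern was examined as shares of the whole RNA, with exact two-sided permutations of the difference in means, adjusted over 8 classes. Secondary granule genes, the list above with Mmp9 and Ltb4r1 included, made up 1.04% of TPM in GC-WT mice (SD 0.0969, n = 6). In GC-KO mice they made up 0.751% ± 0.160 (exact permutation p = 0.0108, adjusted 0.0866). Mitochondrially encoded mRNAs held 0.692% ± 0.206 and 0.932% ± 0.0716 (exact permutation p = 0.0238, adjusted 0.0952). Neither reached an adjusted p of 0.05. Immunoglobulin genes held 0.331% ± 0.128 and 0.204% ± 0.0403 (exact permutation p = 0.0476, adjusted 0.104), and ribosomal protein genes 3.56% ± 0.749 and 4.31% ± 0.294 (exact permutation p = 0.0519, adjusted 0.104). Globins held 16.4% ± 4.38 and 20.5% ± 3.11 (exact permutation p = 0.0931, adjusted 0.149). The largest class was that of 5 small structural RNAs (Rn7s1, Rn7s2, Rn7sk, Rpph1 and Rmrp), with 48.8% ± 7.18 and 44.7% ± 4.68 (exact permutation p = 0.264). Since this class takes so much of the total, the shares were also taken of the remainder. There, secondary granule genes held 2.07% ± 0.352 and 1.35% ± 0.222 (exact permutation p = 0.00216), with an adjusted p of 0.013. This adjustment was over fewer classes, as the small RNAs and the 100 most abundant genes were not in that test.

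**Figure D4:**
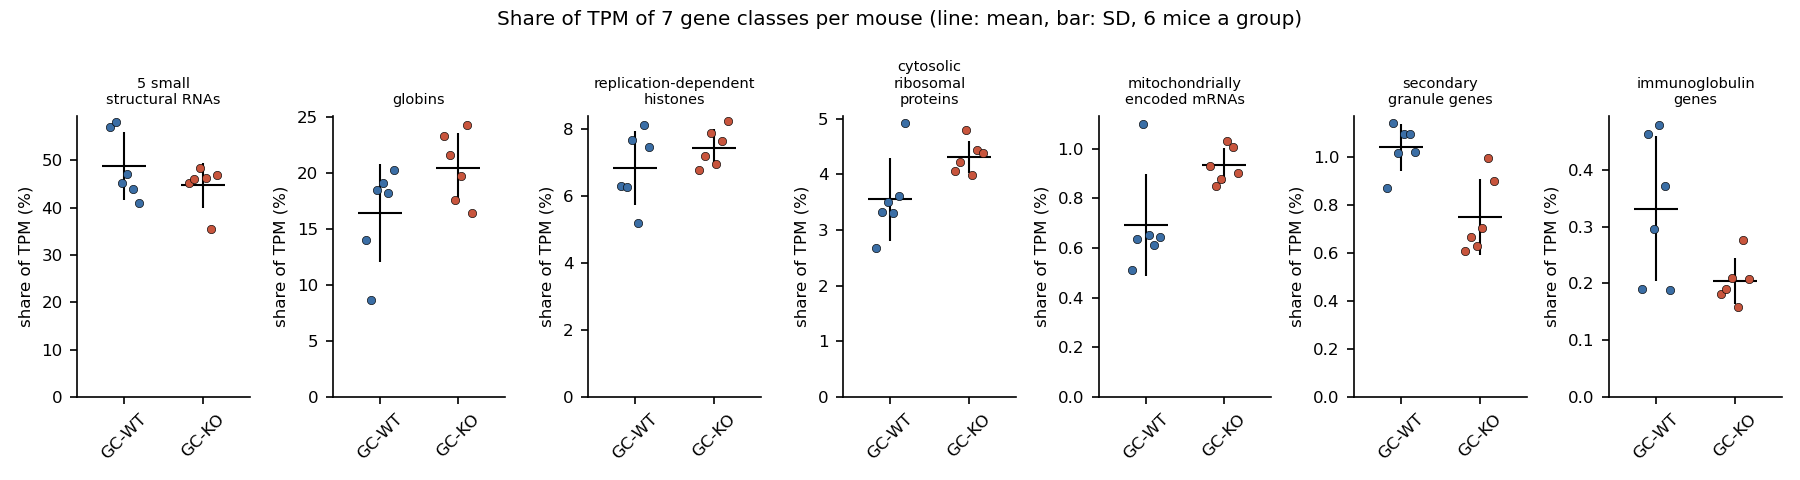
Share of TPM (percent) of 7 gene classes in the 12 ground mice, 6 per genotype; points are mice, the horizontal line is the mean and the bar 1 SD. Secondary granule genes lie lower in GC-KO mice (1.04% and 0.751%), mitochondrially encoded mRNAs higher (0.692% and 0.932%), and the small structural RNAs overlap widely.

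The 16 genes higher in GC-KO mice included gene models without a known product, pseudogenes and small RNA genes, and 4 of them lie close together on chromosome 14. Gm16867, a gene model on the minus strand at chr14:69363504-69503362, was listed at 0 in all GC-WT mice and ranged from 26.0 to 38.7 TPM (median 34.9) in GC-KO mice. Gm27177, annotated as antisense at chr14:69582164-69683286, was at 0 to 0.01 TPM in GC-WT mice and 15.7 to 38.0 TPM (median 23.2) in GC-KO mice. The groups were thus wholly apart (exact permutation p = 0.00216 for each). Gm38378 and Gm37513 lie inside these models and had identical values, 0 in GC-WT mice and 1.16 to 3.05 TPM in GC-KO mice, so these 2 do not add independent evidence. Gm16867 lies opposite to Entpd4, which encodes a nucleoside diphosphatase, and Gm27177 opposite to Entpd4b and Loxl2. The library kit keeps the strand, but whether the counting used it is not given in the sources used here, so reads of a gene and its antisense partner may not have been kept apart. Entpd4 was at 1.08 ± 0.188 and 1.38 ± 0.187 TPM (adjusted p = 0.144), and Entpd4b had a log2 fold change of -0.01. Gm37094 overlaps Gm16867 on the same strand. It was at 5.62 ± 1.83 and 11.1 ± 4.11 TPM (log2 fold change 0.84, adjusted p = 0.0025), so this locus was not without signal in GC-WT mice.

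Gm3608, a pseudogene at chr1:105455971-105458829, ranged from 0.60 to 1.09 TPM (median 0.815) in GC-WT mice and from 31.8 to 49.1 TPM (median 37.9) in GC-KO mice. The log2 fold change was 4.40 ± 0.12 (SE; adjusted p = 1.45e-20). Klk1, tissue kallikrein, a serine protease, ranged from 0.91 to 4.62 TPM (median 3.79) and from 7.45 to 10.7 TPM (median 9.93), with no overlap (log2 fold change 1.34 ± 0.18 SE, adjusted p = 3.95e-05). Klk1b27, of the same gene family, ranged from 0.18 to 0.76 TPM (median 0.44) and from 1.81 to 2.6 TPM (median 2.46), also with no overlap (log2 fold change 1.23 ± 0.10 SE). Both kallikreins lie on chromosome 7 (chr7:44225360-44229618 and chr7:44052290-44056712). Among 14 genes of the Klk1 and Klk1b family in the table, these 2 were the ones above 1 TPM in any ground mouse, the others reaching at most 0.06 TPM. Reads of the family could be split between its members.

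Srp54b, of the signal recognition particle, ranged from 0 to 0.42 TPM (median 0.15) in GC-WT mice and from 0.10 to 4.45 TPM (median 3.02) in GC-KO mice (log2 fold change 1.47, adjusted p = 0.000496). Its near-identical copy Srp54c went the other way, at 6.65 ± 0.909 and 2.85 ± 1.33 TPM (log2 fold change -1.05), and Srp54a was at 6.22 ± 1.10 and 5.74 ± 1.07 TPM. The sum of the copies was 13.04 ± 1.801 and 11.2 ± 1.56 TPM, so the assignment of reads among the copies is uncertain. The remaining higher DEGs were the small RNA genes Gm23971, Gm26316, Gm25360 and Snora23, the pseudogenes Gm29216 and Gm8226, 4931408C20Rik and mt-Atp8, which overlaps mt-Atp6 on the same strand. Gm23971 varied most, from 0 to 261 TPM in GC-WT mice and from 370 to 2041 TPM in GC-KO mice. mt-Atp8 had overlapping groups (44.9 to 1094 TPM and 258 to 838 TPM). All 16 were also called against the shift, but that test moved their values further from 0 and so was no check on them. All 16 were called after median-of-ratios scaling, which raised the median of all genes from -0.22 to 0.02. With the GC and length trend removed, 14 were called.

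**Figure D5:**
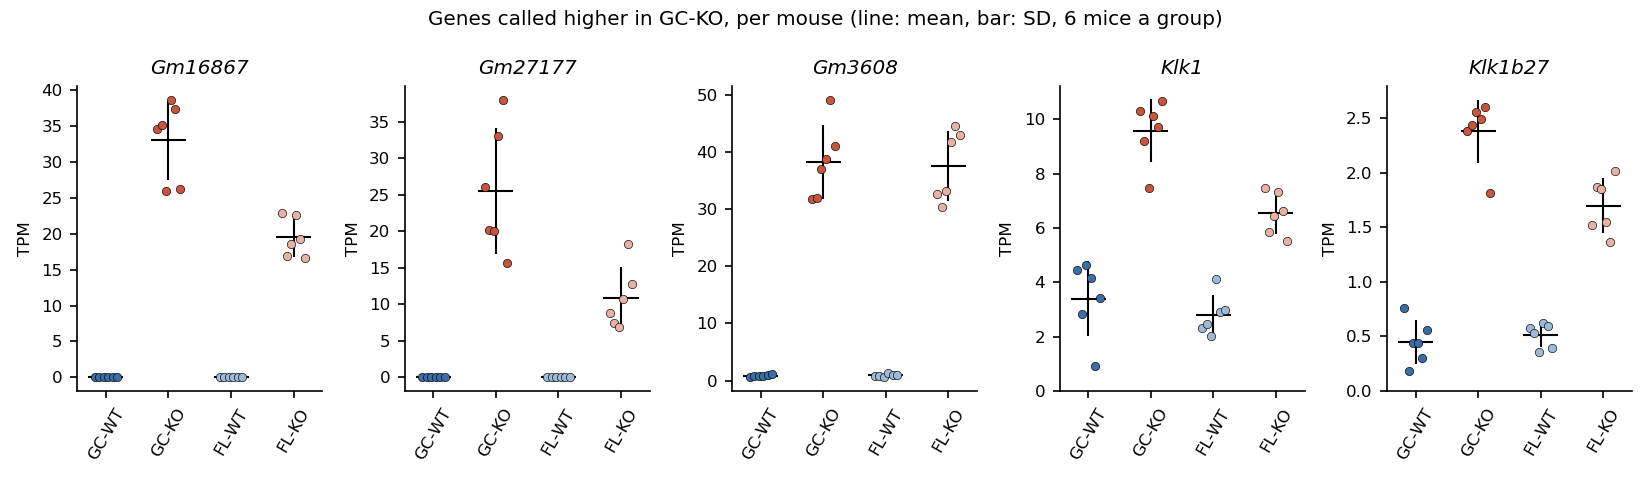
TPM of Gm16867, Gm27177, Gm3608, Klk1 and Klk1b27 in each mouse of the 4 groups (GC-WT, GC-KO, FL-WT and FL-KO; 6 mice each); points are mice, the horizontal line is the mean and the bar 1 SD. All GC-KO mice lie above all GC-WT mice in each gene, and Gm16867 is at 0 in every WT mouse.

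Markers of other cells were compared in the same way, at any fold change, where 42.9% of all genes fell and 3.13% rose. T and NK cell genes showed 5 lower and 1 higher of 15, with summed TPM of 72.0 to 108 in GC-WT mice and 65.2 to 97.3 in GC-KO mice. Il2rb fell by 0.91 and Gzma rose by a log2 fold change of 0.44. Of 8 monocyte genes, 5 fell, and Csf1r, the receptor for macrophage colony-stimulating factor, was a DEG at 15.97 ± 4.84 and 6.42 ± 3.15 TPM (log2 fold change -1.24). Of 12 genes of marrow macrophages 3 fell, and of 14 genes of megakaryocytes and platelets 5 fell. Of 14 genes of eosinophils, basophils and mast cells 2 fell, among them Hdc, histidine decarboxylase (log2 fold change -1.17). These shares were below that of all genes. The medians of the 3 lists relative to the shift were 0.08, -0.04 and 0.28. With the trend removed they were 0.13, 0.01 and 0.01, where the median of all genes is 0.02. Among 10 tested stem and progenitor cell genes 6 fell, with a median relative to the shift of -0.28 and of -0.22 with the trend removed, and Gata2 and Kit were at log2 fold changes of -0.92 and -0.77. The summed TPM of this list was 42.8 to 66.6 in GC-WT mice and 29.7 to 48.9 in GC-KO mice, with a small overlap. Markers of skeletal muscle were near 0 (Acta1, Ckm and Myh4, at most 1.29 TPM). Of osteoblast markers, Bglap and Sp7 were at most 0.61 TPM. Col1a1 was at 1.32 to 7.10 TPM in GC-WT mice and 1.76 to 6.53 TPM in GC-KO mice. Of endothelial markers, Cdh5 (0.44 to 1.16 TPM) and Emcn (at most 0.47 TPM) were low. Pecam1 was at 6.49 to 8.92 TPM in GC-WT mice and 4.25 to 6.72 TPM in GC-KO mice. Cxcl12, of marrow stroma, was at 26.5 to 63.6 TPM in GC-WT mice and 30.5 to 55.5 TPM in GC-KO mice. Lepr and Adipoq, of the same set, were at most 3.57 and 2.40 TPM. Their part in the differences above was not tested.

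In the mice that had flown, which share no library with the ground mice, the same genotype comparison called 8.36% of genes lower and 0.097% higher. Of the 376 genes lower on the ground, 373 had a negative value there too, where 79.1% of all tested genes did, and 343 had no overlap between FL-KO and FL-WT mice, where 20.6% of all genes lay apart in this direction. The median of the 376 was -1.15 on the ground and -1.497 in flight (log2). For Nfe2l2 the values were -1.91 and -2.23, for Mmp9 -1.92 and -2.85, for Mpo -1.72 and -2.39, and for Ltf -1.62 and -2.33. Some B lineage genes had values nearer to 0 in flight, as in Rag1 (-1.05 and -0.56), Bach2 (-1.07 and -0.74) and Ikzf3 (-1.10 and -0.87). None of these differences between ground and flight passed the interaction test, which called 2 of 12373 genes at an adjusted p under 0.1 and 2-fold (428 had an unadjusted p under 0.05). Of the 16 genes higher on the ground, 4 were called higher in flight, 14 were above 0 (20.7% of all genes), and 7 had no overlap (0.307% of all genes). Their median was 1.51 on the ground and 0.69 in flight (log2). Gm3608 (4.40 and 4.31) and Klk1 (1.34 and 1.003) stayed on the higher side, as did Gm16867, at 0 in FL-WT mice and at 16.7 to 22.9 TPM in FL-KO mice, whereas Gm26316 (1.33 and -0.71) and Gm25360 (1.06 and -0.15) did not.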

How the data were processed

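RNA-seq of bone marrow covered 24 mice, a library per mouse, and groups were taken from the sample labels. The authors mapped reads of MGIEasy RNA Directional libraries, sequenced on the DNBSEQ-G400, to mm10 (GRCm38) with STAR 2.6.1, and RSEM 1.3.1 gave the TPM, as the labels and methods state. The deposited table gives TPM without read counts, so depth, counting intervals and count tests are not available here.

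From this table, genes with TPM above 1 in at least 1 of the 24 libraries were tested with limma 3.58.1 (R 4.3.3) on log2(TPM + 1), in a fit of all 24 libraries with a mean per group. DEGs changed by 2-fold or more with an adjusted p (Benjamini-Hochberg) under 0.1. Single genes were tested with exact two-sided permutations of the rank sum, and 8 classes of genes by their share of TPM with exact permutations of the mean. The interaction was the genotype difference in flight minus that on the ground. Python 3.11.15 ran the other steps with pandas 2.3.3, numpy 2.4.6, matplotlib 3.10.9 and scipy 1.17.1. The limma test of GC-KO against GC-WT was tried on simulated data, in which genes varied independently and had no common shift.

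Coordinates, GC content and length came from GENCODE M21, in which 12370 of the 12373 tested genes were found (11901 with the same version of the identifier), and promoters from RefSeq for GRCm38.p6. The GC and length trend was fitted for each library with splines of 4 degrees of freedom.

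The text names Nfe2l2; the 15 lowest and all higher genes among those DEGs that averaged 5 TPM or more without overlap; the remaining higher DEGs; and up to 4 members of each of 44 gene lists, with the DEGs of a list beyond these. A few of these genes are not reported here. Some neighbours and overlapping genes were named after their values were seen. The genes, lists and rule were chosen with earlier results of these data known. Alternatives tried were other pseudocounts, filters, scalings, a trend in limma, the ground libraries alone, other thresholds, the GC and length trend removed, small RNAs left out and each mouse left out.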

Additional observations from a re-analysis of the deposited data

Results flagged for a closer look

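In 282 groups of 6 mice (133 genes and 8 classes in both genotypes), the highest or lowest mouse was set against its neighbour with Dixon's ratio. It stood apart in 18 groups (6.38%), where chance gives about 1 in 20. GC-WT mouse 10 accounted for 9 of the 18. It was the lowest GC-WT mouse in Mpo at 109 TPM (the next at 254), Tle3 at 9.84 (17.3), Selplg at 58.6 (80.4), Iqgap1 at 27.8 (44.5), Klf13 at 19.2 (34.1), Cpt1a at 4.53 (8.95) and Hdc at 19.55 (35.1), and the highest in Rps27a at 638 (397) and Rpl9 at 618.6 (394). Its values lay toward those of GC-KO mice in all 9.

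Other mice stood apart in single genes or classes. GC-KO mouse 11 was the highest of its group in Gclm at 62.4 TPM (44.7) and had the lowest share of the 5 small structural RNAs, 35.4% (45.3%). GC-WT mouse 06 was the highest in mt-Atp8 at 1094 TPM (323) and in the share of mitochondrially encoded mRNAs at 1.10% (0.653%). GC-WT mouse 08 was the highest in Prdx6 at 37.6 TPM (32.9) and in Gm27177, at 0.01 TPM where the others were at 0. GC-WT mouse 07 was the highest in Rag1 at 9.84 TPM (6.94), GC-KO mouse 04 in Hist1h4i at 228 TPM (202), and GC-KO mouse 12 the lowest in Klk1b27 at 1.81 TPM (2.38).

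The genotype difference was unequal on the ground and in flight in 2 genes. For Hist1h2ap, a replication-dependent histone, the interaction was -1.08 on the log2 scale (limma adjusted p = 0.0746). On the ground it was at 2866 ± 601 TPM in WT and 2878 ± 264 TPM in Nrf2-KO mice, and in flight at 3460 ± 710 and 1646 ± 236 TPM (SD, n = 6 each). For Gm26917, a long non-coding RNA, the interaction was -1.46 (limma adjusted p = 0.0475).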

How the results depend on the processing

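No paired analysis was possible for GC-KO against GC-WT because these groups share no mouse numbers. Ground and flight mice of a genotype do share numbers, but the deviations of the 12 same-numbered pairs correlated at r of -0.026 to 0.27, 7 of them above 0.1, and 3 of 12 mice correlated best with their own number. As not every pair was above 0.1, the numbers were not taken to pair the mice. With the mouse number as a replicate block, the interaction called 10 genes (9 lower, 1 higher), among them the 2 called without it and Gm25360 and Gm27177, which were higher on the ground, and 3 were called with median-of-ratios scaling.

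Against 376 lower and 16 higher genes, the numbers were 123 and 29 when tested against the median shift, 86 and 33 with quantile normalization, 70 and 30 with median-of-ratios scaling, 41 and 18 with the GC and length trend removed, 946 and 37 with a pseudocount of 0.1, and 5306 and 387 with no minimum fold change. Without the 5 small RNAs, 902 were lower and 21 higher. With no filter, a filter of 6 libraries, a trend in limma, the ground libraries alone or an adjusted p under 0.05, they stayed between 366 and 377 and between 14 and 17. With 1 mouse left out at a time, they lay between 248 (without GC-KO mouse 04) and 605 (without GC-KO mouse 11) and between 15 and 20, with 580 and 581 lower genes without GC-KO mouse 12 and GC-WT mouse 10. The cause was not tested. The median of all genes was 0.019 with the trend removed, 0.030 with quantile normalization, 0.019 with median-of-ratios scaling, -0.014 with no filter, which adds genes near 0, and -0.35 without the small RNAs, and -0.27 to -0.19 with 1 mouse left out. Nfe2l2 was called lower throughout, at -2.12 to -1.58, and at -2.01 to -1.84 with 1 mouse left out.

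Of 63 other named lower genes, 5 were still called with the trend removed, 30 with quantile normalization and 21 with median-of-ratios scaling, and of 16 higher ones between 14 and 16. With 1 mouse left out, 46 to 63 of the 63 were. The calls lost in this way, at up to 7 of 12 mice, included those of Actb, Bach2, Cat, Cd74, Chd4, Hk2, Igha, Ikzf3, Irf4, Klf2, Ltb4r1, Nfkb1, Rac2, Rag1, Smarcc2, Tcf3 and Was among the lower genes and of Gm25360 and mt-Atp8 among the higher ones, and all but that of mt-Atp8 were lost by falling under 2-fold. Gclm turned to 0.0052 with the trend removed, 0.035 with quantile normalization and 0.14 with median-of-ratios scaling, and S100a8 to -0.074 with quantile normalization. Relative list medians changed sign in 3 of 44 lists with median-of-ratios scaling, 7 with quantile normalization, 5 with the trend removed and 9 with no filter.

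The difference in shares of TPM, in percentage points with 1 mouse left out, was 1.39 to 2.34 for the 100 most abundant genes, -5.60 to -2.16 for the small RNAs, 0.581 to 1.03 for ribosomal proteins, 2.48 to 4.85 for globins, -0.156 to -0.0982 for immunoglobulins, 0.204 to 0.322 for mitochondrial mRNAs, 0.277 to 0.864 for histones and -0.339 to -0.262 for secondary granule genes. It passed an adjusted exact permutation p of 0.05 for ribosomal proteins without GC-WT mouse 10, for mitochondrial mRNAs without GC-WT mouse 06 and for secondary granule genes without GC-WT mouse 03 (-0.325), and for the last also outside the small RNAs (-0.712). The depth behind the values is unknown, so genes at a few TPM have an unknown counting error.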

Other observations

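Other gene groups of the marrow are given by their counts and medians relative to the shift. At any fold change, 42.9% of all genes fell. Of 30 genes of DNA replication and mitosis, 15 fell at any fold change and 0 were DEGs, with a median relative to the shift of -0.12. Of 10 heat shock chaperones, 5 fell, and of 14 genes of ATF4 and amino acid stress, 7 fell, with medians of -0.11 and -0.08. Among 37 proteasome subunits, which Nrf2 and its relative Nfe2l1 can induce, 11 fell. Tested against the shift, 8 passed as higher, where 13.9% of all genes did. The list median was 0.08. Of 9 p53 targets, 3 fell, with a median of 0.08. Circadian clock genes were low in both groups, with a summed TPM of 22.1 to 32.3 in GC-WT mice and 17.8 to 21.5 in GC-KO mice, without overlap, and 7 of 11 fell. Their median relative to the shift was -0.18 and turned to 0.13 with the GC and length trend removed.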
